A study of Mus musculus with 7 samples.

Results

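IgA B cells were read from single-cell B cell receptor libraries of mouse lymph nodes. A cell was counted as IgA when it had exactly 1 productive heavy chain contig and that contig carried the IGHA constant region. This gave 58 IgA cells of 17178 cells with a single heavy chain and an isotype call, or 0.338% (exact Clopper-Pearson 95% interval 0.256 to 0.436). The constant region gene Igha lies at chr12:113254830-113260236 on the minus strand of GRCm38. The same libraries held 505 IgG cells and 13024 IgM cells, chosen in the same way. A further 3591 cells had an IGHD call. They count among the 17178 cells but belong to neither the IgM nor the IgG cells.

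The libraries came from deep cervical (dCLN), superficial cervical (sCLN) and inguinal (iLN) lymph nodes of 5xFAD mice and of wild-type (WT) mice, all females aged 10 to 11 months and otherwise untreated as far as the labels say. The 5xFAD strain is a transgenic model of brain amyloid deposition whose transgenes are driven by the neuronal Thy1 promoter. Every node of either genotype was represented by 1 library (6 in all), made from hashtagged cells of several tubes combined into a composite sample. The number of animals is not given in the labels, and nodes of 1 genotype may share animals. A difference between 2 libraries therefore has no replicate check, and cells of 1 library are not replicates. A library held 2398 to 4411 barcodes, 99906 to 312484 UMIs (unique molecular identifiers, each standing for 1 captured transcript) and 26.0 to 114 reads per UMI. Intervals cover counting error only, and cells of 1 clone are not independent. The identity of the cells rests on the receptor contig alone, because gene expression was not used here.

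IgA is the antibody class that is secreted across mucosal surfaces, and most IgA plasma cells lie in the gut and other mucosal tissues. A B cell makes IgA after class switch recombination joins its rearranged V, D and J segments to the IGHA constant region, often with help from TGF-beta and T cells. Somatic hypermutation, started by the deaminase AID, adds base changes to the V segment in germinal centres, so the number of changes records part of a cell's history. Antibody-secreting cells carry far more immunoglobulin transcript than resting B cells, so the number of heavy chain UMIs per cell serves here as a proxy. IgA plasma cells have also been described in the meninges.

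The heavy chain junctions of the 16 IgA cells with at least 100 heavy chain UMIs are printed first, because these cells hold most of the IgA transcripts. Each runs from the conserved cysteine codon to the conserved tryptophan codon, and capitals mark bases assigned to neither the V, the D nor the J segment (N bases).
5xFAD dCLN IGHV1-62-2/IGHV1-71 IGHJ3 with 11129 UMIs: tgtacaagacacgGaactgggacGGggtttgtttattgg
5xFAD dCLN IGHV8-12 IGHJ2 with 2284 UMIs: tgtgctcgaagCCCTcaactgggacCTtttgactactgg
5xFAD dCLN IGHV8-12 IGHJ2 with 1117 UMIs: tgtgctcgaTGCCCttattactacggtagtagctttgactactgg
5xFAD dCLN IGHV1-39 IGHJ4 with 652 UMIs: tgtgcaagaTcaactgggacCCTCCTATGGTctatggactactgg
5xFAD dCLN IGHV1-55 IGHJ1 with 597 UMIs, and identical in the cell with 503 UMIs: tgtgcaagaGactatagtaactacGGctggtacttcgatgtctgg
5xFAD dCLN IGHV1-80 IGHJ1 with 558 UMIs: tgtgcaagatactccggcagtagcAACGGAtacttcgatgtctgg
5xFAD dCLN IGHV8-12 IGHJ4 with 438 UMIs: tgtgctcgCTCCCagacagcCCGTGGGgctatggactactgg
5xFAD dCLN IGHV14-3 IGHJ2 with 274 UMIs: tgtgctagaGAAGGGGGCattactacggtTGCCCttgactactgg
WT dCLN IGHV1-64 IGHJ4 with 3074 UMIs: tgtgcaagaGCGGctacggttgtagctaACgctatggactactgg
WT dCLN IGHV1-52 IGHJ2 with 1173 UMIs: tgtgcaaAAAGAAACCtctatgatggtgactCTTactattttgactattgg
WT sCLN IGHV1-75 IGHJ2 with 10152 UMIs: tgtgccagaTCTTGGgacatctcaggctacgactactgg
WT sCLN IGHV14-1 IGHJ1 with 6083 UMIs: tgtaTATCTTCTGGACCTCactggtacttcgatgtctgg
WT sCLN IGHV5-16 IGHJ1 with 5582 UMIs: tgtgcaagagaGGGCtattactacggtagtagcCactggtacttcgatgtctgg
WT sCLN IGHV1-76 IGHJ3 with 2846 UMIs: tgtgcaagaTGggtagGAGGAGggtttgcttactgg
WT sCLN IGHV5-4 IGHJ2 with 2233 UMIs: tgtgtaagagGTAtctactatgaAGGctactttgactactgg
These 15 distinct junctions were 36 to 54 bases long, and the only junction found in more than 1 of the 16 cells was that of IGHV1-55. In the same library, no heavy chain contig outside these cells carried any of the 15 junctions. That search covered deposited contigs of the same library only, so free transcripts that gave no contig could not be seen. The IGHV1-64 junction of WT dCLN also occurred in a WT sCLN cell with 22 UMIs, described below.

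IgA was rare in every library, and its share of cells with an isotype was highest in the deep cervical nodes. In the dCLN, 22 of 3866 cells (0.569%, 0.357 to 0.860) were IgA in 5xFAD and 17 of 3314 (0.513%, 0.299 to 0.820) in WT. In the sCLN, 4 of 2343 cells (0.171%, 0.0465 to 0.437) were IgA in 5xFAD and 9 of 3404 (0.264%, 0.121 to 0.501) in WT. In the iLN, 2 of 2084 cells (0.0960%, 0.0116 to 0.346) were IgA in 5xFAD and 4 of 2167 (0.185%, 0.0503 to 0.472) in WT. The intervals of the 5xFAD and the WT library overlapped in each node. Between nodes, the dCLN interval overlapped those of sCLN and iLN in WT. In 5xFAD it overlapped that of sCLN but not that of iLN. The share in 5xFAD minus that in WT was 0.0561 percentage points (-0.317 to 0.417) for dCLN, -0.0937 (-0.361 to 0.208) for sCLN and -0.0886 (-0.388 to 0.195) for iLN. Over the 3 nodes the difference averaged -0.0421 ± 0.0850 points (SD, exact two-sided sign-flip test p = 0.5, smallest possible p 0.25). Among switched cells, counted as IgA and IgG, IgA made up 13.8% in 5xFAD and 12.5% in WT dCLN, 5.88% and 6.25% in 5xFAD and WT sCLN, and 8% and 12.9% in 5xFAD and WT iLN. By that measure the WT share was highest in the iLN.

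**Figure D1:**
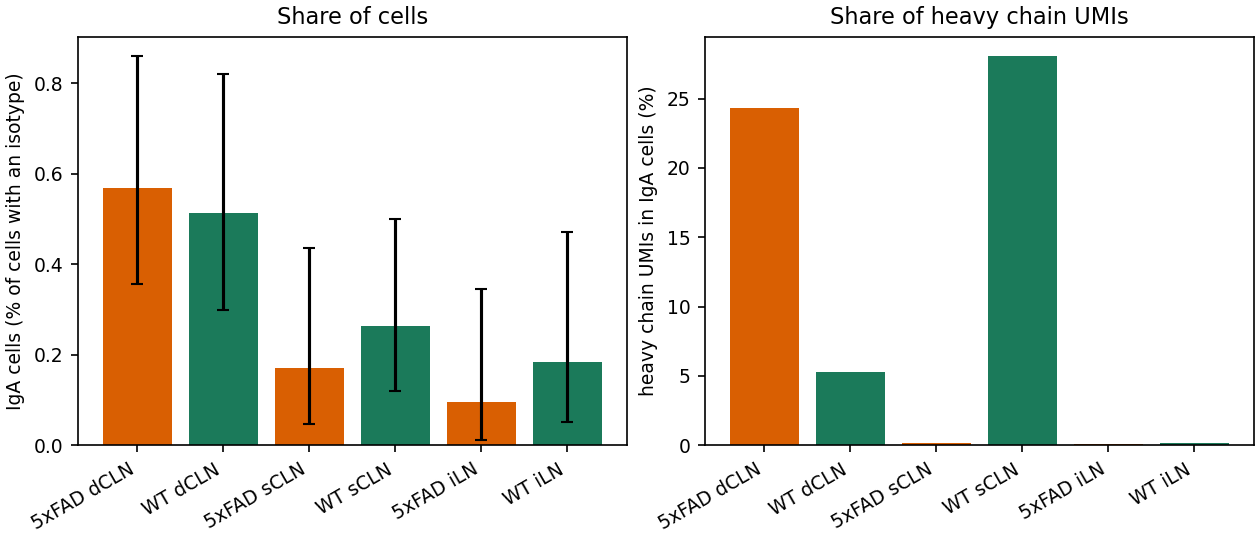
IgA cells as a percent of cells with an isotype (left, with exact 95% intervals) and heavy chain UMIs in IgA cells as a percent of all heavy chain UMIs (right), by library, with 5xFAD in orange and WT in green. The share of cells was at most 0.569%, whereas the share of UMIs was 24.3% in 5xFAD dCLN and 28.1% in WT sCLN. A single cell held 11129 of the 17735 IgA UMIs of 5xFAD dCLN, and another 10152 of the 26952 of WT sCLN.

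Pooled over the 6 libraries, the few IgA cells held a large part of the heavy chain transcripts, and the IgG cells a larger one. Of 338915 heavy chain UMIs in the 6 libraries, 49155 (14.5%) were in the 58 IgA cells and 71450 (21.1%) in the 505 IgG cells. The IgA share was 24.3% in 5xFAD dCLN against 5.29% in WT dCLN, and 0.127% in 5xFAD sCLN against 28.1% in WT sCLN. In the inguinal nodes it was 0.121% in 5xFAD and 0.135% in WT. The IgG share was 2.92% in 5xFAD dCLN against 52.4% in WT dCLN, and 2.67% in 5xFAD sCLN against 25.2% in WT sCLN. In the inguinal nodes the IgG share was 3.07% in 5xFAD and 0.960% in WT. The 2 cells with the most heavy chain UMIs in the 6 libraries were both IgA. One was an IGHV1-62-2/IGHV1-71 cell of 5xFAD dCLN with 11129 UMIs, and the other an IGHV1-75 cell of WT sCLN with 10152 UMIs. The shares of UMIs therefore rest in large part on single cells. These cells held 11129 of the 17735 IgA UMIs of 5xFAD dCLN and 10152 of the 26952 of WT sCLN. In WT dCLN a single cell held 3074 of 4356 IgA UMIs. The top 2 cells had few reads per UMI, with 28331 reads for 11129 UMIs and 47156 reads for 10152 UMIs. Their libraries, 5xFAD dCLN and WT sCLN, had 41.5 and 29.3 reads per UMI. Whether deeper sequencing would change the UMI counts or ranks of such cells was not tested. IgA cells were 4 of the 10 and 8 of the 20 cells with the most UMIs, and 10 of the 26 cells above 1000 UMIs.

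A threshold of 100 heavy chain UMIs, used as a proxy for secretion, was passed by 16 of 58 IgA cells (27.6%, 16.7 to 40.9). It was passed by 26 of 505 IgG cells (5.15%, 3.39 to 7.45) and by 26 of 13024 IgM cells (0.20%, 0.130 to 0.292). The intervals of IgA overlapped neither those of IgG nor those of IgM, but they treat pooled cells as independent. The 16 cells made up 23.5% of the 68 cells of any isotype above the threshold. IgA cells fell into separate ranges with none between 41 and 274 UMIs, so thresholds of 50 and 200 UMIs select the same 16 cells. In the range of 50 to 99 UMIs there were 19 IgG and 66 IgM cells, and from 100 to under 200 UMIs there were 2 IgG and 14 IgM cells. Above the threshold the median was 1703 heavy chain UMIs in IgA cells, 973.5 in IgG cells and 185 in IgM cells. Below it the median was 8 in IgA, 9 in IgG and 13 in IgM cells.

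The cells above the threshold came from 3 of the 6 libraries. They were 9 of 22 IgA cells in 5xFAD dCLN (40.9%, 20.7 to 63.6) against 2 of 17 in WT dCLN (11.8%, 1.46 to 36.4). In the sCLN they were 0 of 4 IgA cells in 5xFAD, a number too small to set a useful limit, against 5 of 9 in WT (55.6%, 21.2 to 86.3). No inguinal IgA cell passed, with 14 and 18 UMIs in 5xFAD iLN and 8, 9, 10 and 12 UMIs in WT iLN. The 4 IgA cells of 5xFAD sCLN had 1, 4, 5 and 31 UMIs. The 5xFAD library was the higher of the pair in the dCLN and the lower in the sCLN. The IgA cells ranged over 3 to 11129 UMIs (median 31) in 5xFAD dCLN, 2 to 3074 (median 8) in WT dCLN and 4 to 10152 (median 2233) in WT sCLN.

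**Figure D2:**
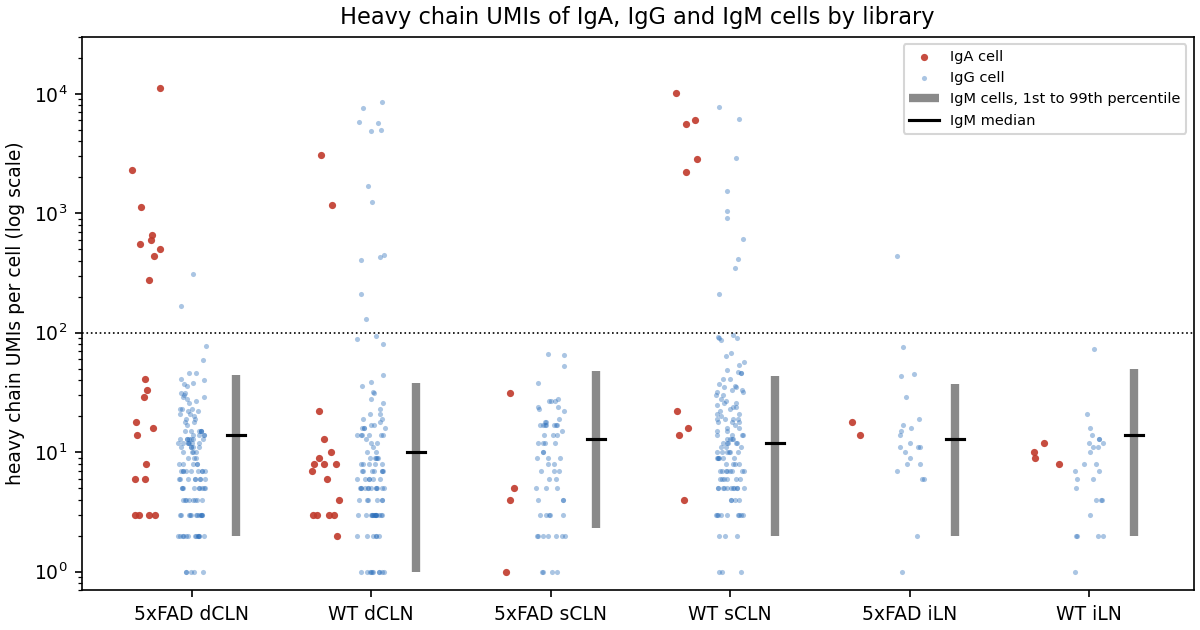
Heavy chain UMIs per cell on a log axis by library, with 1 point per IgA cell (red) or IgG cell (blue), a grey bar from the 1st to the 99th percentile of IgM cells and a black line at their median. The dotted line is the threshold of 100 UMIs; IgA cells above it lie in 5xFAD dCLN (9 cells), WT dCLN (2 cells) and WT sCLN (5 cells).

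Over the 6 libraries, the share of IgA cells above the threshold minus that of IgG cells averaged 14.0 ± 23.3 percentage points (SD). It was positive in 3 libraries, 0 in 2 and negative in 1 (exact two-sided sign-flip test p = 0.375, Benjamini-Hochberg adjusted p = 0.636). The excess lay in 5xFAD dCLN (39.4 points) and WT sCLN (48.1 points). It was 0.840 points in WT dCLN, where 13 of 119 IgG cells (10.9%) passed, and -4.35 points in 5xFAD iLN. The mean log10 heavy chain UMIs of IgA cells exceeded that of IgG cells by 0.362 ± 0.587 (exact p = 0.25, adjusted p = 0.636), with 4 libraries higher and 2 lower. Against IgM cells the difference was 0.296 ± 0.668 (exact p = 0.375, adjusted p = 0.636), again higher in 4 libraries. WT sCLN weighed most on these values, since without it the share difference from IgG was 7.19 points and the log10 differences were 0.174 from IgG and 0.0646 from IgM. Without 5xFAD dCLN the share difference was 8.93 points. With the library as the unit, none of these differences was larger than the spread between libraries. Between genotypes, mean log10 UMIs of IgA cells in 5xFAD minus WT were 0.714 for dCLN, -1.82 for sCLN and 0.217 for iLN (exact p = 1).

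Light chain transcripts moved with heavy chain transcripts in the same cells. The 16 IgA cells above the threshold each had exactly 1 light chain, with a median of 2581.5 light chain UMIs and a range of 201 to 18337. The 36 cells below it that had a light chain held a median of 18.5 light chain UMIs and a range of 4 to 131. This median was 34 in IgG and 30 in IgM cells below the threshold. The light chain ranges of both IgA sets did not overlap, although the light chain was not used to set the threshold. The heavy chain exceeded the light chain in 4 of the 16 cells, and the median ratio of heavy to light chain UMIs was 0.655 above the threshold and 0.5 below it. In the IGHV1-62-2/IGHV1-71 cell of 5xFAD dCLN, 11129 heavy chain UMIs stood beside 18337 UMIs of IGKV5-48.

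**Figure D3:**
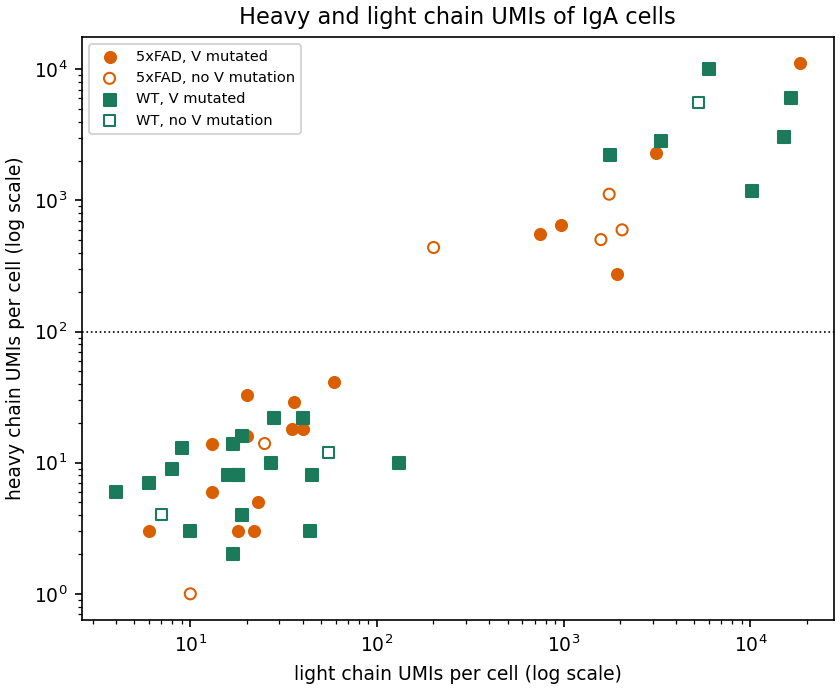
Heavy chain UMIs against light chain UMIs of the 52 IgA cells with a light chain, both on log axes, with 5xFAD cells as orange circles and WT cells as green squares; open symbols have no V mutation. The 16 cells above the dotted line at 100 heavy chain UMIs have at least 201 light chain UMIs, and the others at most 131.

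Most IgA cells carried somatic mutations in the heavy chain V segment, at a level close to that of IgG cells and far above that of IgM cells. V mutation is the percent of V bases that differ from the assigned germline gene. Over the 58 IgA cells it averaged 2.74% ± 2.28 (SD over cells), with a median of 2.38% or 7 mutations and a range of 0 to 25 mutations. IgG cells averaged 2.61% ± 2.51 and IgM cells 0.0272% ± 0.214. At least 1% mutation was found in 40 of 58 IgA cells (69.0%, 55.5 to 80.5), 348 of 505 IgG cells (68.9%, 64.7 to 72.9) and 85 of 13024 IgM cells (0.653%, 0.522 to 0.806). No mutation was found in 11 IgA cells (19.0%, 9.87 to 31.4), 15.6% of IgG cells and 95.7% of IgM cells. More than 5% mutation was found in 11 IgA cells (19.0%) and in 15.2% of IgG cells. For 35 of the 36 heavy chain V genes used by IgA cells the median IgM cell had no mutation. The exception was the joint call IGHV2-6-1/IGHV2-6-2, whose median IgM cell differed from the germline by 0.341%, and 1 IgA cell used it.

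Of the 5 IgA cells with the most mutations, 4 were in the dCLN and 1 in the iLN. An IGHV3-6 cell of WT dCLN had 25 mutations (8.56%) and an IGHV1-84 cell of the same library had 22. An IGHV5-9 and an IGHV1-53 cell of 5xFAD dCLN had 19 each, and an IGHV5-16 cell of WT iLN had 17. These 5 cells held 3 to 41 heavy chain UMIs, so none was above the threshold of 100. The V segment of the IGHV3-6 cell is printed to show a heavily mutated IgA receptor, from the first V base to the conserved cysteine codon, with capitals at bases that differ from the germline gene.
WT dCLN IGHV3-6: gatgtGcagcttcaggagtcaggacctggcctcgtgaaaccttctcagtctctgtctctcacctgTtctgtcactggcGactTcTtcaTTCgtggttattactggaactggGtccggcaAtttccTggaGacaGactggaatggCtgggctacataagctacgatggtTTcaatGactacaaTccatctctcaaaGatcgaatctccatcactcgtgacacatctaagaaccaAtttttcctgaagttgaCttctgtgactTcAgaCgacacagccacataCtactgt

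In each of the 6 libraries, mean V mutation was higher in IgA than in IgM cells. The difference averaged 2.20 ± 1.12 percentage points (SD, exact two-sided sign-flip test p = 0.03125, the smallest that 6 libraries allow, Benjamini-Hochberg adjusted p = 0.25 over 16 contrasts). The share of cells with at least 1% mutation differed by 68.0 ± 10.3 points, higher in 6 of 6 libraries with the same exact p of 0.03125. With 16 contrasts an adjusted p under 0.05 would have needed 11 of them at that smallest value, so neither difference passed the correction. Against IgG cells, mean V mutation of IgA cells differed by -0.385 ± 1.04 points, higher in 3 libraries and lower in 3 (exact p = 0.406, adjusted p = 0.636, range of single libraries -1.82 to 0.626). It was -0.0976 points without 5xFAD iLN, which held 2 IgA cells, -0.198 without 5xFAD sCLN and -0.588 without WT dCLN.

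In each node the IgA cells of 5xFAD had a lower mean V mutation than those of WT. In the dCLN the mean was 2.51% ± 2.21 in 5xFAD (SD over 22 cells) and 3.42% ± 2.54 in WT (17 cells). In the sCLN it was 1.45% ± 1.02 in 5xFAD (4 cells) and 3.37% ± 2.12 in WT (9 cells). In the iLN it was 0.510% ± 0.721 in 5xFAD (2 cells) and 2.13% ± 2.52 in WT (4 cells). The difference, 5xFAD minus WT, was -0.909, -1.92 and -1.62 points and averaged -1.48 ± 0.517 (exact two-sided sign-flip test p = 0.25, the smallest that 3 nodes allow, adjusted p = 0.75 over 3 measures). The IgG cells of the same libraries had the same direction, with means of 2.17% in 5xFAD and 2.79% in WT dCLN, 2.77% and 2.84% in 5xFAD and WT sCLN, and 2.33% and 2.78% in 5xFAD and WT iLN. IgM cells did as well, at 0.0255% in 5xFAD and 0.0350% in WT dCLN, 0.0274% and 0.0315% in 5xFAD and WT sCLN, and 0.0172% and 0.0228% in 5xFAD and WT iLN. The direction was therefore shared by the 3 isotypes, and whether its size differs between them was not tested. Unmutated IgA cells were 7 of 28 in 5xFAD and 4 of 30 in WT over the nodes.

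**Figure D4:**
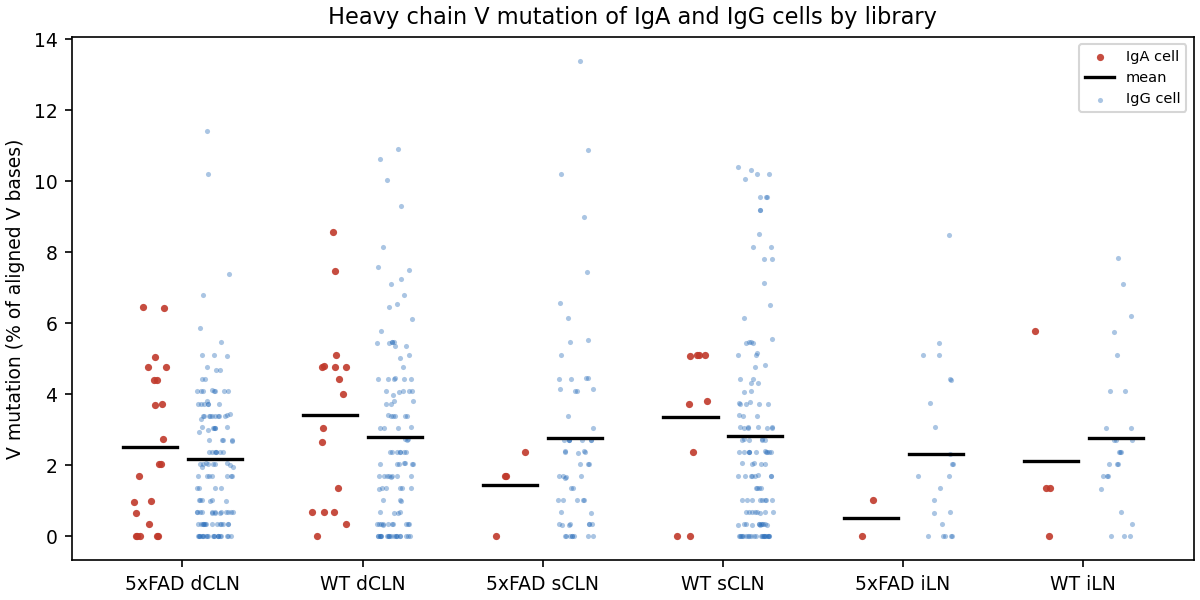
Heavy chain V mutation as a percent of aligned V bases by library, with 1 point per IgA cell (red) or IgG cell (blue) and a black line at the mean. IgA means are 2.51%, 1.45% and 0.510% in 5xFAD dCLN, sCLN and iLN and 3.42%, 3.37% and 2.13% in the WT libraries of the same nodes.

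Among IgA cells above 100 heavy chain UMIs, the 5xFAD cells had fewer mutations at the median than the WT cells. The 9 cells of 5xFAD dCLN, from 8 clones, had 0, 0, 0, 0, 1, 3, 6, 11 and 14 mutations, a mean of 1.32% ± 1.80. The 7 WT cells had 14 and 15 mutations in the dCLN and 0, 11, 11, 15 and 15 in the sCLN, a mean of 3.95% ± 1.84. The ranges overlapped, but the median was 1 mutation in 5xFAD and 14 in WT. Cells below the threshold averaged 2.64% ± 2.11 in 5xFAD (19 cells) and 3.01% ± 2.51 in WT (23 cells). The 5xFAD cells above the threshold come from the dCLN alone and most of the WT cells from the sCLN, so genotype and node cannot be told apart here. In 5 of the 16 cells neither the heavy nor the light chain V segment had a mutation. They were a pair of IGHV8-12 cells with different junctions, both IGHV1-55 cells and the IGHV5-16 cell of WT sCLN with 5582 heavy chain UMIs. All 3 IGHV8-12 cells among the IgA cells were in 5xFAD dCLN and above the threshold, with 2284, 1117 and 438 UMIs, 3, 0 and 0 mutations, and IGKV4-57-1, IGKV8-21 and IGKV8-24 as light chains. Their junctions, printed above, have different lengths and different N bases, so they are separate clones.

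Pooled over libraries, IgA mutations were more frequent in the complementarity-determining regions (CDR), the loops that contact antigen. Counting each of 54 distinct IgA sequences once, 4.41% of bases in CDR1 and CDR2 were mutated against 2.38% of framework bases, a ratio of 1.86. The CDR share was the higher one in 4 of the 6 libraries. In 5xFAD sCLN it was 1.08% against 1.46% in the framework (16 mutations in all), and in 5xFAD iLN all 3 mutations were in the framework. In 463 distinct IgG sequences the values were 4.38% and 2.28%, a ratio of 1.92. Amino acid replacements made up 77.4% of CDR mutations and 63.96% of framework mutations in IgA, and 76.5% and 63.8% in IgG. Of mutations at C or G, 63.9% fell in an AID hotspot triplet in IgA, whereas such positions made up 26.7% of all C and G bases. In IgG these shares were 69.0% and 27.2%. Hotspots were searched on the coding strand as the final C of AAC, AGC, TAC or TGC and as the first G of GTT, GCT, GTA or GCA, the same motifs read from the other strand. Transitions were 64.1% of IgA and 61.4% of IgG mutations. Above and below the UMI threshold the CDR to framework ratios were 1.95 and 1.91, and replacements made up 28 of 32 (87.5%) and 68 of 90 (75.6%) CDR mutations. These location measures were chosen after the mutation levels had been seen and carry no test.

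**Figure D5:**
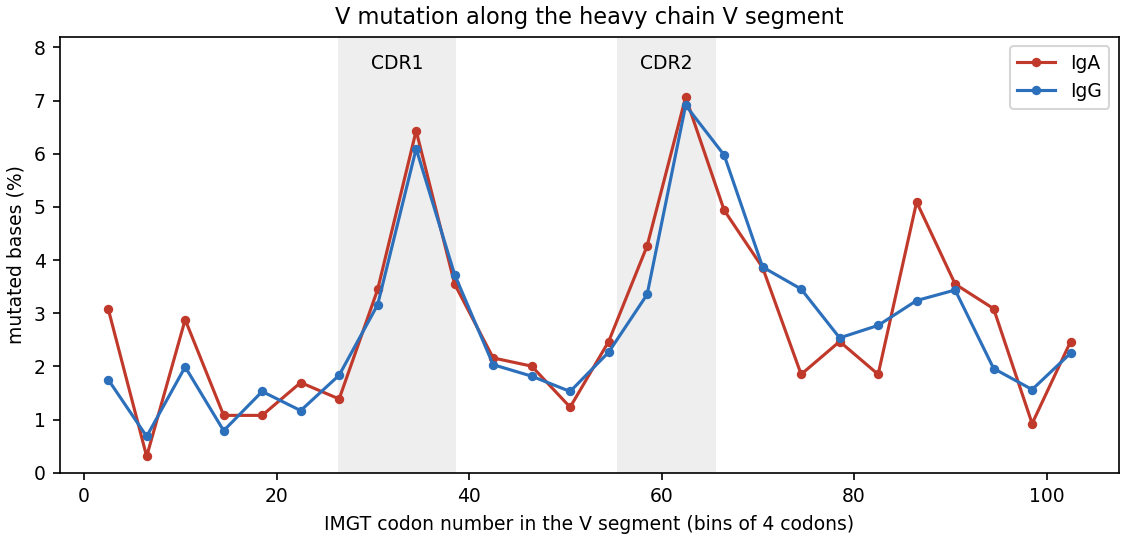
Percent of V bases mutated along the heavy chain V segment in bins of 4 IMGT codons, for 54 distinct IgA sequences (red) and 463 distinct IgG sequences (blue), with CDR1 and CDR2 shaded. Both curves peak in the bin of codons 33 to 36 (6.43% in IgA, 6.10% in IgG) and in that of codons 61 to 64 (7.06% in IgA, 6.91% in IgG).

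The 58 IgA cells used 36 heavy chain V genes, 21 of them in a single cell. Only 4 genes were used by 3 or more cells. IGHV9-3 (chr12:114140692-114141122, GRCm38, minus strand, as are the following) was used by 5 cells (8.62%, 2.86 to 19.0), against 4.75% of IgG cells. IGHV1-9 (chr12:114583569-114584002) was used by 4 cells (6.90%, 1.91 to 16.7), against 1.58% of IgG cells. IGHV8-12 (chr12:115647945-115648387) and IGHV8-8 (chr12:115294062-115294504) were used by 3 cells each (5.17%, 1.08 to 14.4), against 1.39% and 3.56% of IgG cells. By family, IGHV1, the large family that most mouse B cells use, led with 28 cells (48.3%, 35.0 to 61.8), against 54.9% of IgG and 56.7% of IgM cells. IGHV5 followed with 8 cells, IGHV8 with 6, IGHV2 and IGHV9 with 5 each, IGHV3 and IGHV14 with 2 each, and IGHV7 and IGHV10 with 1 each. Of 76 heavy chain V genes seen in IgA or IgG cells, 0% had intervals apart in either direction. Of 97 seen in IgA or IgM cells, 1 gene (1.03%) was higher in IgA with intervals apart and 0 were lower. That gene was IGHV1-84, with 2 of 58 IgA cells (3.45%, 0.420 to 11.9) against 16 of 13024 IgM cells (0.123%, 0.0702 to 0.199), a count of 2 cells that was named after its values were seen.

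No IgA cell used a V gene of the B-1 and innate-like list (IGHV11-1, IGHV11-2, IGHV12-3, IGHV7-1, IGHV4-1 and IGHV6-6), which includes the anti-phosphatidylcholine genes IGHV11 and IGHV12 of B-1 cells and IGHV7-1 of the phosphorylcholine response. A count of 0 of 58 cells allows a share of up to 5.17%. The same list held no IGHV11-1 or IGHV11-2 cell, 1 IGHV12-3, 5 IGHV7-1, 11 IGHV4-1 and 8 IGHV6-6 cells among the 505 IgG cells. Among the 13024 IgM cells it held no IGHV11-1, 12 IGHV11-2, 6 IGHV12-3, 32 IGHV7-1, 97 IGHV4-1 and 121 IGHV6-6 cells. The list was thus rare in IgM cells too, but most of its genes had a larger share of IgG cells. IGHV4-1, IGHV6-6 and IGHV7-1 were in 2.18%, 1.58% and 0.990% of IgG cells, against 0.745%, 0.929% and 0.246% of IgM cells. IGHV12-3 was in 0.198% of IgG and 0.0461% of IgM cells, whereas IGHV11-2 was in 0% and 0.0921%. The 58 IgA cells are few to show a lower share. IGHV1-72, known from responses to the hapten NP, was in 0 IgA cells and in 15 IgG cells.

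Among D segments, IGHD1-1 led with 15 IgA cells (25.9%, 15.3 to 39.0), against 27.7% of IgG cells. IGHD4-1 followed with 7 cells, IGHD2-3 and the joint call IGHD2-5/IGHD2-6 with 5 each, IGHD2-4/IGHD2-9 with 4 and IGHD3-2 with 3. No D segment was called in 10 IgA cells (17.2%, 8.59 to 29.4), against 8.91% of IgG and 10.1% of IgM cells. All 4 J segments were used, with IGHJ2 in 18, IGHJ4 in 15, IGHJ3 in 13 and IGHJ1 in 12 cells. Junctions averaged 43.3 ± 8.18 bases in IgA cells (range 27 to 63), 43.0 ± 7.78 in IgG and 42.1 ± 7.88 in IgM cells. Terminal deoxynucleotidyl transferase adds bases when segments are joined. N bases were counted as all junction bases assigned to neither V, D nor J. Such a count can also take in bases of an uncalled D segment and mutated junction bases. It averaged 8.66 ± 4.89 per IgA junction, 8.67 ± 4.42 in IgG and 7.12 ± 3.86 in IgM. Junctions without an N base were 0 of 58 in IgA, which allows a share of up to 5.17%, 0.990% in IgG and 1.66% in IgM cells. Over libraries, neither junction length (IgA minus IgG 0.103 ± 3.29 bases, exact p = 0.938, adjusted p = 0.938) nor N bases (0.693 ± 3.52, exact p = 0.688, adjusted p = 0.917) differed beyond the spread. Without WT iLN both turned sign, to -0.849 bases and -0.534 N bases, and without WT dCLN junction length was -0.295 bases.

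A light chain was found in 52 of the 58 IgA cells, a single one in 49 and a pair in 3. They used 33 light chain V genes. IGKV3-2 was used by 4 of the 52 cells (7.69%, 2.14 to 18.5), and IGKV12-46, IGKV15-103 and IGKV8-28 by 3 each (5.77%, 1.21 to 15.9). In IgG cells these genes were used by 1.22%, 2.43%, 0.406% and 0.609%, and in no light chain V gene of 77 (0%) were the IgA and IgG intervals apart. Against IgM, 2 of 95 light chain V genes (2.11%) were higher in IgA with intervals apart, IGKV3-2 (1.23% of IgM cells) and IGKV8-28 (0.760%), and 0 were lower. Of the 4 IGKV3-2 cells, 2 belonged to 1 clone. IGKJ2 was used by 19 cells, IGKJ1 by 16, IGKJ5 by 12 and IGKJ4 by 3. Lambda chains were found in 2 of 52 cells (3.85%, 0.469 to 13.2), both IGLV1 in 5xFAD dCLN, against 4.06% of IgG and 4.35% of IgM cells. The pair IGHV1-9 with IGKV15-103 occurred in 5xFAD sCLN and in WT dCLN, with junctions of 36 and 48 bases and thus as separate clones. Light chain V mutation averaged 1.81% ± 1.89 in IgA and 1.86% ± 2.00 in IgG cells. For 32 of the 33 light chain V genes used by IgA cells the median IgM cell had no mutation. The exception was IGKV3-3, which differed from the assigned germline by 8.11% in the median of 63 IgM cells, so the 24 differences in the IGKV3-3 chain of 1 unmutated IGHV1-84 IgA cell of 5xFAD iLN match that baseline.

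Few IgA cells had a clonal relative. Heavy chains were grouped where they had equal V and J genes, equally long junctions and a difference in at most 0.15 of the junction bases. The 58 IgA cells fell into 54 such groups, of which 4 held 2 IgA cells each. In each of the 4, both cells had the same heavy junction, the same V segment and the same light chain junction. The clones are shown by their heavy and light chain junctions (capitals again at N bases of the heavy chain).
IGHV1-64, IGHJ4 heavy junction: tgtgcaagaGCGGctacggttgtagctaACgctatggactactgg
IGKV3-2, IGKJ2 light junction: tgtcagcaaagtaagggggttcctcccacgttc
IGHV1-55, IGHJ1 light partner IGKV2-137, IGKJ2: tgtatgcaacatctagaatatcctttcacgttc
IGHV5-6/IGHV5-6-1, IGHJ2 heavy junction: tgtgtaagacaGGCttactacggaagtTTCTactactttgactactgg
IGKV10-96, IGKJ1 light junction: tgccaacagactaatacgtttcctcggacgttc
IGHV1-9, IGHJ3 heavy junction: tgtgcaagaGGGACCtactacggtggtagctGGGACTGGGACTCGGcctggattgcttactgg
IGKV12-46, IGKJ5 light junction: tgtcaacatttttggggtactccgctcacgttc
The IGHV1-64 clone (chr12:115507545-115508031) was the one seen in 2 nodes, with 1 cell in WT dCLN and 1 in WT sCLN. The dCLN cell had 3074 heavy and 15180 light chain UMIs, and the sCLN cell 22 heavy and 28 light chain UMIs. Carry-over of transcripts between libraries was not tested. Both cells had the same 15 heavy chain V mutations and 2 light chain V mutations each, under different cell barcodes. Their shared V segment follows, with capitals at the mutated bases.
IGHV1-64 clone: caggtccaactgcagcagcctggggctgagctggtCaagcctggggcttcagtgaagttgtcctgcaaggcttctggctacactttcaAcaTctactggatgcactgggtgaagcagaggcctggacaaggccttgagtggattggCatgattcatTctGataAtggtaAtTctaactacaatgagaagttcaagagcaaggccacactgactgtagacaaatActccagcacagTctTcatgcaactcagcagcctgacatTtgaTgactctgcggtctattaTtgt

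The IGHV1-55 clone (chr12:115208095-115208591) had 2 cells in 5xFAD dCLN with 597 and 503 heavy chain UMIs and no mutation in either chain. The IGHV5-6/IGHV5-6-1 clone, also in 5xFAD dCLN, had 18 and 29 UMIs, with 13 heavy and 16 light chain mutations in both cells. The IGHV1-9 clone of WT iLN had 9 and 8 UMIs, with 4 heavy and 1 light chain mutation in both. Its junction of 63 bases with 21 N bases was the longest among IgA cells, a length shared with the IGHV2-2 cell described next. No pair of IgA cells shared a clone across genotypes.

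In 10 of the 54 groups an IgA cell stood with cells of another isotype, but the light chain matched in 2. The first was an IGHV2-2 and IGHJ4 clone of WT dCLN (chr12:113588267-113588702) whose 4 cells shared IGKV17-127 and IGKJ5. The IgA cell had 2 heavy chain mutations and 3 UMIs, the IgG2c cell 5 mutations and 14 UMIs, and the IgM cell 1 mutation and 4 UMIs. The cell without an isotype call had 0 mutations and 1 UMI. Their heavy junctions are shown because the IgA and the IgM cell carry the same one, with capitals at the positions that differ between the cells.
IgA cell: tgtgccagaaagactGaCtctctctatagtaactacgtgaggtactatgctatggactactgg
IgG2c cell: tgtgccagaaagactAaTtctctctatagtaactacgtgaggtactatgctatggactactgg
IgM cell: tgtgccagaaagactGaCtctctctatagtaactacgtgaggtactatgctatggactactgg
cell without an isotype call: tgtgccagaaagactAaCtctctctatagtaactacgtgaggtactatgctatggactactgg
The second was an unmutated IGHV9-3 and IGHJ4 group with IGKV1-135 and IGKJ5, with an IgA cell in WT iLN (12 UMIs) and a pair of IgM cells in 5xFAD sCLN (45 and 58 UMIs). The IgA junction of 33 bases was found in none of the 4 IgM cells of the group, of which the other 2, in 5xFAD dCLN and WT iLN, had other light chains. All 5 cells were unmutated, and cells of WT and of 5xFAD mice are not descendants of 1 cell.

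In 2 further groups the IgA cell had no light chain contig. One was an IGHV9-3 and IGHJ1 group of WT dCLN, where 1 IgA cell (3 UMIs) and 2 IgG1 cells (6 and 5 UMIs, both with IGKV8-24) had 9 heavy chain mutations each. Their heavy junctions differed at the capital letter.
IgA cell: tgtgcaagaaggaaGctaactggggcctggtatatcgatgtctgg
both IgG1 cells: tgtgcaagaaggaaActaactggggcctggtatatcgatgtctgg
The other joined an IGHV2-6-1/IGHV2-6-2 IgA cell of 5xFAD sCLN (7 mutations) to an IgG2c cell of WT iLN (12 mutations). In 1 group, IGHV8-8 and IGHJ1, the IgM partner had no light chain. In the remaining 5 groups (IGHV1-53, IGHV1-80, IGHV5-16, IGHV5-4 and IGHV5-6) every partner had another light chain. In IGHV1-53 the IgA cell (19 mutations) and its IgG2b partner (15 mutations), both of 5xFAD dCLN, had the same heavy junction, with IGLV1 in the IgA cell and IGKV9-120 in the IgG2b cell. In the 3 of these that held IgM partners, those partners were unmutated.

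Cells in a clone of 2 or more made up 5 of 22 IgA cells in 5xFAD dCLN and 2 of 17 in WT dCLN, 0 of 4 in 5xFAD sCLN and 1 of 9 in WT sCLN, and 0 of 2 in 5xFAD iLN and 3 of 4 in WT iLN, within the library. These are heavy chain groups, so some partners have another light chain. The share was lower in IgA than in IgG cells in 5 of 6 libraries and higher in WT iLN, a mean difference of -2.32 ± 36.3 points (exact p = 0.875, adjusted p = 0.933). This mean rests on single libraries and on the clone definition. It was -16.3 points without WT iLN, 4.94 without WT dCLN, 0.962 without 5xFAD sCLN, -1.20 without 5xFAD dCLN and -0.418 without WT sCLN. It was -5.71 points where the same light chain was required and -4.39 at a junction distance of 0.10. Of 17206 barcodes of cells with a single heavy chain, 174 occurred in 2 or more libraries. They included the barcodes of 2 IgA cells, and neither had the same heavy junction in the other library.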

How the data were processed

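B cell receptor V(D)J libraries were made with a Chromium 5' single-cell kit from hashtagged lymph node cells with viability above 87%, per the labels' protocols. The submitters' processing notes name Cell Ranger 6.0.1, Seurat 4.1.0 and mm10, with no role. For the germline set, name and version were not given in the sources used here. The deposited tables list 1 productive contig per line with V, D, J and constant region calls, per the file headers. UMI and read numbers are counts as the authors deposited them. V identity is a fraction that the authors deposited, and junction and N region lengths count bases, per the file headers.

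From these, cells with exactly 1 heavy chain contig were kept, and barcodes with several heavy chains, which can be doublets, were left out without use of a doublet caller. V mutation was 1 minus V identity, in percent. Mutation positions came from the deposited alignments in IMGT numbering, with CDR1 at codons 27 to 38 and CDR2 at codons 56 to 65. N bases were junction bases assigned to neither V, D nor J. Gene names were matched to GENCODE M21 (assembly GRCm38, or mm10), and 71 of 72 were found. All printed sequences are from the deposited contigs.

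IgA was compared with IgG and IgM within each library on 8 measures, by exact two-sided sign-flip tests over 6 libraries (64 patterns) with Benjamini-Hochberg adjustment over 16 contrasts. Genotypes were compared over 3 nodes (8 patterns). Such tests treat libraries as independent, and p-values measure only the spread between these libraries. Named genes were those used by 3 or more IgA cells, fixed lists of B-1 and hapten-response genes, the most mutated and most abundant cells and every IgA clone. The members, lists and measures were chosen with earlier results of these data known. Python 3.11.15, pandas 2.3.3, NumPy 2.4.6, SciPy 1.17.1 and Matplotlib 3.10.9 were used. The mutation counter, clone grouping and sign-flip test were tested on simulated data.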

Additional observations from a re-analysis of the deposited data

Results flagged for a closer look

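In the mixed library, which pooled every node and genotype and entered no comparison, IgA cells were 11 of 2439 cells with an isotype (0.451%, exact 95% interval 0.225 to 0.806). Of these, 2 had at least 100 heavy chain UMIs, the range was 2 to 785 UMIs with a median of 8, and V mutation averaged 1.91% ± 1.45. None of the 11 shared a heavy junction with a cell of the other 6 libraries.

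Barcodes with 2 or more heavy chains, which were left out of the IgA cells, held 6 IGHA contigs in the 6 libraries. None of the 6 carried the junction of an IgA cell and none reached 100 UMIs.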

How the results depend on the processing

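Of 130 alternatives over 30 results, leaving aside those that drop 1 library, 117 kept the direction and the side of the threshold. Part of this count was fixed in advance, so it is a weak check. Shares and counts of IgA cells cannot turn sign, and the exact sign-flip test over 3 nodes cannot fall below p = 0.25. An adjusted p under 0.05 needed 11 of 16 contrasts at the smallest p, so a change of side was hardly possible. Differences that turned sign were small beside their spread, and no cause was tested. With the 4 cervical libraries alone, IgA minus IgG became 0.0424 points for mean V mutation, 2.65 points for the share with at least 1% mutation, -1.13 bases for junction length and -1.05 N bases. IgA minus IgM then became -0.395 bases for junction length and -2.27 points for cells in clones. With at least 3 UMIs, IgA minus IgG became 2.67 points for the mutated share and -0.634 bases for junction length. With each clone counted once it became -0.853 bases for junction length and 4.75 points for cells in clones. With cells under 100 UMIs only, an alternative chosen after seeing the data, junction length differed by -0.203 bases. Groups of IgA with other cells numbered 6 at a distance of 0.10 and 20 at 0.20, against 10.

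Leaving out 1 library at a time, IgA minus IgG ranged over -4.00 to 0.821 points for the mutated share, -0.849 to 1.12 bases for junction length, -0.534 to 1.42 N bases and -16.3 to 4.94 points for cells in clones. It ranged over -0.588 to -0.0976 points for mean V mutation, 0.174 to 0.478 for log10 UMIs, 7.19 to 17.7 points for cells above 100 UMIs and -3.80 to -1.21 points for lambda chains. IgA minus IgM ranged over 1.97 to 2.55 points for mean V mutation, 66.2 to 71.7 points for the mutated share, 0.0646 to 0.437 for log10 UMIs, 10.4 to 21.5 points for cells above 100 UMIs, 0.224 to 2.39 bases for junction length, 0.879 to 2.78 N bases, -4.42 to -2.29 points for lambda chains and -3.56 to 12.1 points for cells in clones. With 5 libraries the smallest possible exact p is 0.0625.

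Pairing by replicate number was not possible because that number is 1 in every group. The pairs used were isotypes within a library and genotypes within a node. The libraries held 2 to 22 IgA cells each, and the difference that such numbers could show was not estimated. Cells with 1 or 2 heavy chain UMIs, 2 of the 58, rest on few molecules.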
